A study of Arabidopsis thaliana with 36 samples.

Results

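The response of mature rosette leaves of Arabidopsis thaliana plants carrying a ppsr1 T-DNA knockout (KO) to removal of inorganic phosphate (Pi) was measured in 6 poly(A) RNA libraries, 3 from plants kept at 200 µM Pi and 3 from plants moved to 0 µM Pi for 24 h, out of 36 libraries in the series. The members were chosen by their labels (KO, leaf, either Pi level), and every gene was described across them. The references were 2 other genotypes: Col-0 wild type (WT) and an AtPPSR1 overexpression line (OE), for which the labels name 1 representative line. Each was sampled in the same way, with 6 leaf libraries per genotype, and KO roots gave 6 more. Before the change, hydroponic culture at 200 µM Pi lasted 4 weeks, and the labels give 3 independent biological replicates per group and 1 batch for all. The AtPPSR1 locus was not matched to a row of the table, so the transcript of the disrupted gene was not analysed here and the genotype label was not checked against it.

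Plants read their Pi status through SPX-domain proteins, which bind inositol pyrophosphates and, when Pi is plentiful, hold back the transcription factor PHR1. PHR1 binds a short imperfect palindrome, the P1BS element, in promoters of genes for Pi transport, acid phosphatases and lipid remodelling, in which phospholipids are replaced by galactolipids and sulfolipids that contain no phosphorus. In leaves, ferritin genes, whose products store iron in plastids, are also known targets of PHR1.

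The KO leaf libraries held 8900000 to 12200000 recovered reads, so that 1 read on 1 kb of coding sequence was worth 0.082 to 0.112 FPKM (fragments per kilobase, scaled to library depth). The first KO library at 200 µM (replicate 1) listed 9488 genes at 0, against 7353 to 8551 in the remaining 17 from leaves. The 26 photosynthesis genes summed to 195000 to 318000 FPKM in KO leaves and to 1970 to 3750 FPKM in KO roots. Of 12 root markers, 8 were at 0 in every KO leaf library at 200 µM and 9 at 0 µM, the 5 seed markers summed to at most 0.2 FPKM, and the senescence marker SAG12 was at 0 in all 6 libraries. In these bulk samples, fewer cells of a type and less RNA per cell cannot be told apart. No source used here states the strand setting of the counting, and FER1, FER4, PAP17, GDPD1, PLDZ2, LUX, HSFC1, MYB73, MYBR1, AVP1, RALFL33, AFP1, PHR1, CHS, BHLH38, AT5G51010, AT1G73390, AT3G19680 and AT1G23110 overlap another annotated gene, whose reads may be shared with theirs.

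Removal of Pi for 24 h changed 182 of 16489 genes tested in KO leaves when p-values from limma were adjusted by Benjamini-Hochberg and held to 0.05, 1.1% of those tested. Of these, 159 rose (0.964%) and 23 fell (0.139%). On the scale of log2(FPKM + 1), which is used for every change below and understates the change of weakly expressed genes, the median change was 1.78 among the risers and -1.46 among the fallers, against 0.15 over all genes tested. That general shift shrank to 0.01 under median-of-ratios scaling and to 0.02 without replicate 1 at 200 µM. Without any other single KO leaf library it was 0.12 to 0.22. The groups did not overlap for any of the 182 called genes, and they did not overlap for 15.4% of all genes tested with 0 µM higher and 7.08% with 0 µM lower. When each KO leaf library was left out in turn, 52 of the 182 calls were kept in all 6 fits, 49 of them rises. The total fell to 55 without replicate 1 at 0 µM and to 74 without replicate 2 at 0 µM, and was 125 without replicate 1 at 200 µM. With a trend on coding length removed, the split of calls was 152 higher and 49 lower; it was 858 and 560 (60.5% higher, against 87.4%) with library weights, and 70 and 10 when the spread was estimated from the 6 KO leaf libraries alone.

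The largest rise was that of AT5G20790, annotated in the file as a transmembrane protein. It was listed at 0, 0.31 and 0 FPKM in replicates 1, 2 and 3 at 200 µM and at 84.3, 162 and 50.5 FPKM at 0 µM. The change was 6.35 (SE 0.90, adjusted p = 0.0014), and it was also called in KO roots, where it was 5.03. AT1G23110, annotated as a fold protein, was listed at 0 in all 3 libraries at 200 µM and at 12.6, 29.6 and 5.31 FPKM at 0 µM, so no fold is given for it. The KO leaf groups did not overlap for either gene, which holds for every called gene and adds no separate evidence for these. The groups did not overlap in OE leaves either, but they did in WT leaves. There AT5G20790 was at 4.92, 2.3 and 0 FPKM with Pi and at 5.56, 12.85 and 2.64 FPKM without. AT1G23110 was at 0.22, 0.53 and 0.2 FPKM in WT leaves with Pi and at 0.7, 2.13 and 0.27 FPKM without.

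The Pi-starvation genes were followed in 5 lists: sensing and signalling, transport, galactolipid and sulfolipid synthesis, phospholipid breakdown, and acid phosphatases with ribonucleases. Of their 61 members, 39 passed the filter on low values, 15 of these rose and none fell. Their median change was 0.76, and 37 of the 39 had a value above 0, as did 63.2% of all genes tested. The mean log2 level of the 39 genes was 2.99, 3.44 and 3.46 in the 200 µM libraries and 4.45, 4.69 and 4.17 in the 0 µM libraries, with no overlap. Without replicate 1 at 200 µM, the lowest of the 6, 7 rises were called and the median was 0.48, and without replicate 1 or replicate 2 at 0 µM 5 were called.

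Among sensing and signalling genes, 4 of 9 tested rose. SPX1, a nuclear Pi sensor, was at 5.25, 9.34 and 6.47 FPKM with Pi and at 90.5, 108 and 57.8 FPKM without (change 3.41, SE 0.37, adjusted p = 3.8e-04). The noncoding transcript AT4, which sequesters a Pi-responsive microRNA, was at 5.27, 0 and 3.7 FPKM with Pi and at 69.3, 146 and 36.3 FPKM without (change 4.56, SE 0.68, adjusted p = 0.0021). Replicate 2 was the highest and replicate 3 the lowest of the 0 µM libraries for both. PHF1, which helps Pi transporters leave the endoplasmic reticulum, went from 3 to 6.02 FPKM with Pi to 10.9 to 14.8 without (1.36, SE 0.29, adjusted p = 0.028), and SPX2 from 5.59, 18.9 and 15.4 to 31.5, 34.1 and 27.6 FPKM (1.31, SE 0.31, adjusted p = 0.049). The PHF1 call was lost without replicate 1 or 2 at 0 µM or replicate 1 at 200 µM (adjusted p up to 0.16), and the SPX2 call was lost in every such fit except that without replicate 2 at 200 µM (up to 0.21). PHO2, the ubiquitin-conjugating enzyme that removes Pi transporters, was at 16.8, 48.1 and 60.2 FPKM with Pi and at 115, 153 and 106 FPKM without, and did not pass (1.72, adjusted p = 0.11). PHR1 itself was at 12.8, 28.1 and 22.9 FPKM with Pi and at 18.5, 24.8 and 17.5 FPKM without (-0.01, adjusted p = 0.99), overlapping ranges. SPX3 and IPS1 fell below the filter. Both were listed at 0 in all 3 libraries with Pi, SPX3 at 0.67, 1.08 and 0.66 FPKM and IPS1 at 0.34, 3.27 and 0 FPKM without.

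In Pi transport, 2 of 8 tested genes rose. PHO1;H1, a homologue of the Pi exporter PHO1 that acts in loading the xylem, was at 0.91, 2.59 and 1.64 FPKM with Pi and 12.3, 19.1 and 7.55 FPKM without (2.33, SE 0.39, adjusted p = 0.0046). G3Pp1, a putative glycerol-3-phosphate transporter, was at 8, 12.6 and 10.6 FPKM with Pi and 33.8, 43.6 and 33.5 FPKM without (1.74, SE 0.41, adjusted p = 0.049), a call lost in all 6 leave-one-out fits (adjusted p up to 0.20). The plasma membrane transporter PHT1;4 was at 0.07, 1.48 and 0.82 FPKM with Pi and at 6.13, 4.82 and 6.39 FPKM without, and did not pass (2.00, adjusted p = 0.062). PHO1 was at 3.16, 3.3 and 3.99 FPKM with Pi and at 4.57, 7.35 and 3.83 FPKM without (0.44, adjusted p = 0.50). No reads were listed in any of the 6 libraries for 6 transporter genes. The vacuolar Pi importer PHT5;1 ranged from 20 to 22.7 FPKM with Pi and from 21.6 to 23 FPKM without (0.05, adjusted p = 0.92).

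**Figure D1:**
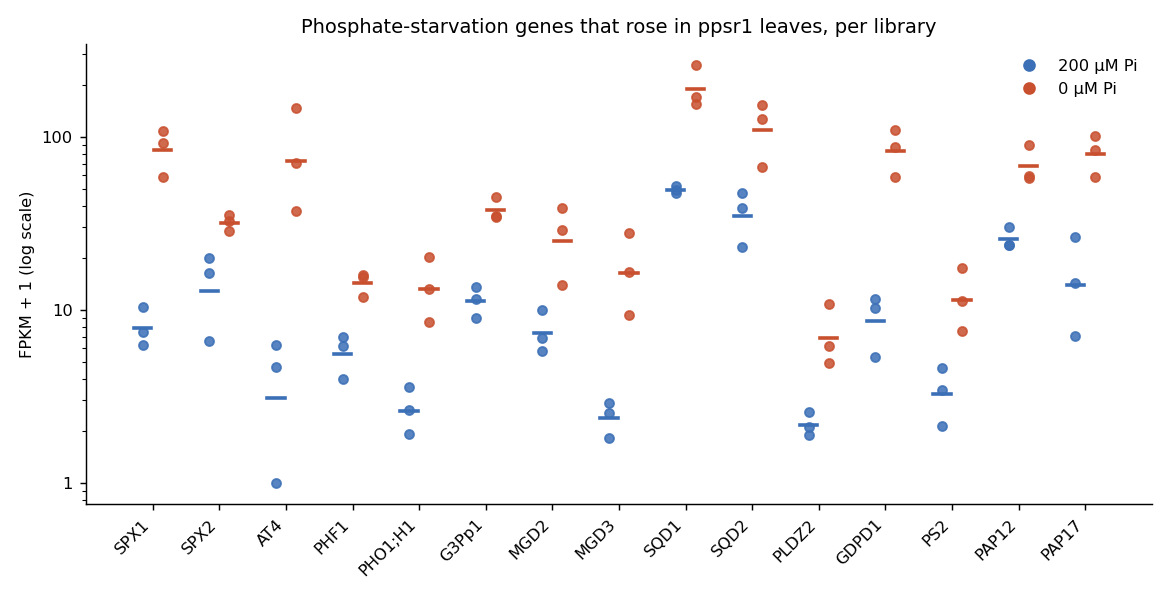
FPKM + 1 on a log scale in each KO leaf library for the 15 genes of the 5 Pi lists that rose, at 200 µM (blue) and 0 µM Pi (red). Points are libraries and bars are geometric means of FPKM + 1. The colours do not overlap for any of the 15, as the groups do not for any of the 182 called genes. Over all genes tested, 15.4% were separated with 0 µM higher. AT4 is at 0 FPKM in 1 library with Pi.

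Genes of lipid remodelling rose on both the synthesis and the breakdown side. Of 8 galactolipid and sulfolipid genes, 4 rose, with a median of 1.23 over the list. SQD1, which makes the sulfoquinovose head group precursor, was at 48.1, 46.5 and 51.1 FPKM with Pi and 169, 259 and 154 FPKM without (1.94, SE 0.22, adjusted p = 5.1e-04). MGD3, the starvation-type monogalactosyldiacylglycerol synthase, was at 1.53, 1.89 and 0.81 FPKM with Pi and 15.6, 26.9 and 8.3 FPKM without (2.78, SE 0.44, adjusted p = 0.0034). The calls of SQD1 and MGD3 were kept in all 6 leave-one-out fits. MGD2, of the same type, was at 8.94, 5.9 and 4.79 FPKM with Pi and at 28.1, 38 and 13 FPKM without (1.77, SE 0.32, adjusted p = 0.0096), and the call was lost without replicate 1 (0.074) or replicate 2 (0.079) at 0 µM. SQD2, which joins the head group to diacylglycerol, was at 22.1, 38 and 46.5 FPKM with Pi and at 126, 151 and 66.3 FPKM without (1.64, SE 0.32, adjusted p = 0.017), lost without replicate 1 or 2 at 0 µM (0.12 each) or replicate 1 at 200 µM (0.073). MGD1, the housekeeping galactolipid synthase, was at 22.1, 39.8 and 39.3 FPKM with Pi and 62, 57.2 and 48.6 FPKM without (0.75, adjusted p = 0.12).

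On the breakdown side, 3 of 6 tested genes rose, with a median of 1.24. GDPD1, which splits glycerophosphodiesters, was at 4.34, 9.23 and 10.6 FPKM with Pi and 86.3, 108 and 57.9 FPKM without (3.26, SE 0.73, adjusted p = 0.038). PLDZ2, a phospholipase D induced by Pi starvation, was at 0.89, 1.1 and 1.59 FPKM with Pi and 5.17, 9.82 and 3.97 FPKM without (1.67, SE 0.35, adjusted p = 0.024). PS2, annotated as inorganic pyrophosphatase 1, was at 1.14, 2.46 and 3.65 FPKM with Pi and 10.2, 16.5 and 6.53 FPKM without (1.81, SE 0.43, adjusted p = 0.049). Each of the 3 was higher in every 0 µM library than in any 200 µM library, as was every called riser. The calls depended on single libraries: GDPD1 was lost in all 6 leave-one-out fits (adjusted p up to 0.18), and PLDZ2 (up to 0.15) and PS2 (up to 0.24) without replicate 1 or 2 at either Pi level. PECP1, a phosphatase acting on phosphoethanolamine and phosphocholine, lay below the filter and was listed at 0 in the 3 libraries with Pi and at 1.27, 2.72 and 0.46 FPKM without.

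The 300 bases upstream of each annotated gene start (RefSeq annotation of TAIR10.1) were searched for the P1BS letters GNATATNC, a palindrome that reads the same on both strands. A match was present for 5 of the 15 risers of the 5 Pi lists and for 6 of the 24 tested members that were not called. Over all 159 risers the share was 15.7%, over the 23 fallers 0%, and over all 27443 genes with a window 6.5%. The windows of the ferritin risers FER1, FER3 and FER4 held no match. Of the 10 risers in the iron-storage, EXORDIUM and arabinogalactan lists described below, 1 had a match. The windows of 4 risers from these lists are shown because they carry the motif at different distances, with the match in capitals.
AT4: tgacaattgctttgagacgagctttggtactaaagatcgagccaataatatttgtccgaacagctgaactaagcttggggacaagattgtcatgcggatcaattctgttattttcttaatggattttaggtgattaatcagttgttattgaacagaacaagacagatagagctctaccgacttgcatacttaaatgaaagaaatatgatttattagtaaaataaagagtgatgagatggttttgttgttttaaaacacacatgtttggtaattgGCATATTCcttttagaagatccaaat
GDPD1: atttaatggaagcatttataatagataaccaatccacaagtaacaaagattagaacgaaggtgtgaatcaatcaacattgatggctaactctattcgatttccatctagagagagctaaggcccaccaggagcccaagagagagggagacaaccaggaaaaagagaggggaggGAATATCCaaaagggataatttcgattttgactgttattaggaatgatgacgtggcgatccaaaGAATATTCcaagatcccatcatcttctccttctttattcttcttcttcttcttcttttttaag
MGD2: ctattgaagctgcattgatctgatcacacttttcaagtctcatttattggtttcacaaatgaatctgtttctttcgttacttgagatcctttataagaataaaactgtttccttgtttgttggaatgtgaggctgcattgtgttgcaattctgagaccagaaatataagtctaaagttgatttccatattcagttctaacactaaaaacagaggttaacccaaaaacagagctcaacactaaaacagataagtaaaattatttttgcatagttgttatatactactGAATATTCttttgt
PLDZ2: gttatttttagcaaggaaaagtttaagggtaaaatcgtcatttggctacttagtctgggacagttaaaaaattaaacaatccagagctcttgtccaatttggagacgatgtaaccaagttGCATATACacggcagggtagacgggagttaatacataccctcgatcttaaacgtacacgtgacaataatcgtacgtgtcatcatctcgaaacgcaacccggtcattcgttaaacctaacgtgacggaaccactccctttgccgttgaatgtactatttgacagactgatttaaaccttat
The AT4 window is chr5:894282-894581 on the + strand, with its match starting 26 bases before the gene start. GDPD1 (chr3:350011-350310, - strand) has matches 127 and 63 bases before it. The MGD2 window is chr5:6896163-6896462 on the + strand, with its match 14 bases before the gene start. PLDZ2 (chr3:1634894-1635193, + strand) has its match 180 bases before it. A match describes the letters in the window and says nothing about binding in these leaves.

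Of 8 acid phosphatase and ribonuclease genes tested, 2 rose. PAP17, a purple acid phosphatase, was at 6.08, 13.3 and 25.2 FPKM with Pi and 83.2, 100.6 and 57.8 FPKM without (2.52, SE 0.54, adjusted p = 0.028). PAP12, a secreted one, was at 29.2, 22.6 and 22.7 FPKM with Pi and 58.6, 88.4 and 56.6 FPKM without (1.39, SE 0.28, adjusted p = 0.019). Both calls were lost without replicate 1 or 2 at 0 µM or replicate 2 at 200 µM, PAP17 also without replicate 1 at 200 µM and PAP12 also without replicate 3 at 200 µM (adjusted p up to 0.15 and 0.13). The ribonuclease RNS1 was at 0.16, 1.05 and 1.01 FPKM with Pi and at 0.83, 0.14 and 1.95 FPKM without, overlapping ranges (0.12, adjusted p = 0.94). The lists of PEP carboxylases (4 tested, median 0.22) and Pi-related transcription factors (5 tested, median 0.06) held no called gene.

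Iron-storage genes rose with the Pi genes. Of 5 tested members, 3 passed, all ferritins, with a list median of 2.56. FER1 was at 65.7, 33 and 116 FPKM with Pi and 1419.9, 435 and 706 FPKM without (3.57, SE 0.55, adjusted p = 0.0028). FER4 was at 3.46, 8.65 and 11.7 FPKM with Pi and 80.2, 44.9 and 51.3 FPKM without (2.83, SE 0.37, adjusted p = 0.0010). FER3 was at 8.64, 8.42 and 6.96 FPKM with Pi and 96.4, 28.9 and 50.3 FPKM without (2.56, SE 0.46, adjusted p = 0.0088). Replicate 1 was the highest of the 0 µM libraries for all 3, and without it only the FER3 call was lost (0.074). With Pi, the mean log2 level of the 5 tested genes was 3.43, 3.66 and 4.03 in KO libraries. It was 4.59 to 5.57 in WT and 4.16 to 5.03 in OE leaves with Pi. Without Pi the ranges overlapped, at 5.12 to 6.52 in KO, 5.16 to 6.185 in WT and 4.79 to 6.01 in OE leaves.

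Genes of the iron-deficiency list mostly had lower values: 12 of the 15 tested were below 0 (36.8% of all genes tested were), with a median of -0.96, and 1 passed. ORG1, a plastid-localised kinase-like protein of the iron-deficiency regulon, was at 113, 59.7 and 89.2 FPKM with Pi and at 19.5, 22.7 and 22.2 FPKM without (fell by 1.93, SE 0.35, adjusted p = 0.0096), a call lost without replicate 1 at 0 µM (0.069) or replicate 1 at 200 µM (0.052). IMA3, a peptide that activates iron uptake, was at 1608, 359 and 437 FPKM with Pi and at 10.2, 91.6 and 45.7 FPKM without, and did not pass (-4.12, adjusted p = 0.070). IMA1 was at 11.8, 14.3 and 25.2 FPKM with Pi and at 0.54, 1.95 and 1.9 FPKM without (-2.87, adjusted p = 0.086), and 20.3% of its 31-base coding words occur in another gene. The nicotianamine synthase gene NAS3, kept in the same list, had a positive value, with 2.8, 5.21 and 5.91 FPKM with Pi and 35.1, 16.6 and 31.2 FPKM without (2.32, adjusted p = 0.067). BHLH38, a regulator of iron uptake, lay below the filter, at 0, 2.15 and 0.92 FPKM with Pi and at 0.11, 0.26 and 0.25 FPKM without.

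Several further risers encode iron-binding, redox or proton-pumping proteins; apart from NEET, they were picked after their values were seen. NEET, an iron-sulfur cluster protein, was at 12.4, 5.02 and 22.5 FPKM with Pi and 193, 102 and 188 FPKM without (3.66, SE 0.46, adjusted p = 0.0010). FSD1, the iron superoxide dismutase, was at 335, 366 and 686 FPKM with Pi and 1956, 1569 and 1959 FPKM without (2.05, SE 0.29, adjusted p = 0.0014), 1 of 7 superoxide dismutases tested. The rubredoxin family proteins ENH1 and AT5G51010 rose by 2.30 and 2.17 (adjusted p = 0.0010 each), 2 of 6 genes so annotated. Ascorbate peroxidases APX1 (cytosolic) and SAPX (stromal) rose by 1.47 and 1.58 (adjusted p = 0.0014 and 0.0036), 2 of 7 tested. The calls of all 6 genes were kept when any 1 KO leaf library was left out. Over the tested members of these families the median was 0.13 for superoxide dismutases, 0.04 for rubredoxin proteins and 0.45 for ascorbate peroxidases. Over all genes tested it was 0.15, so the families did not rise as a whole with the picked members. AVP1, the vacuolar proton pump driven by pyrophosphate, was at 165, 207 and 172 FPKM with Pi and at 428, 401.3 and 406 FPKM without (1.18, SE 0.16, adjusted p = 0.0014).

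Cell wall genes were followed in 5 lists, of which 3 held called genes. In the EXORDIUM family, extracellular proteins tied to brassinosteroid-dependent growth, 4 of 7 tested genes rose, with a median of 2.95. EXL5 was at 41.1, 16.2 and 11.8 FPKM with Pi and 362, 250 and 169 FPKM without (3.57, SE 0.51, adjusted p = 0.0014), and EXL3 was at 17.3, 33.5 and 28.4 FPKM with Pi and 309, 212 and 128 FPKM without (2.95, SE 0.48, adjusted p = 0.0041). EXO rose by 3.61 (SE 0.74, adjusted p = 0.023) and PHI-1 by 3.12 (SE 0.66, adjusted p = 0.027). Leaving out 1 library kept the calls of EXL5 and EXL3, while EXO was lost without replicate 1 or 2 at 0 µM or replicate 1 or 3 at 200 µM (up to 0.16), and PHI-1 in all 6 fits (up to 0.18).

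Among arabinogalactan and fasciclin-like proteins, glycoproteins of the wall and plasma membrane, 3 of 12 tested rose, with a median of 0.79. Values above 0 numbered 7 of 12, against 63.2% of all genes tested, and the lowest was -0.84. AGP17 was at 8.05, 19.1 and 5.65 FPKM with Pi and 316, 191 and 113 FPKM without (4.16, SE 0.60, adjusted p = 0.0015). FLA13 was at 21.7, 17.8 and 14.2 FPKM with Pi and 252, 163 and 146 FPKM without (3.29, SE 0.36, adjusted p = 3.8e-04). FLA9 was at 64.8, 37.9 and 14.2 FPKM with Pi and 348, 312 and 269 FPKM without (3.19, SE 0.53, adjusted p = 0.0043). All 3 calls were kept in the 6 leave-one-out fits, and replicate 1 was the highest library at 0 µM for each.

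Xyloglucan endotransglucosylases, which cut and rejoin wall xyloglucan, had a median of 1.26, 17 of 19 tested values lay above 0, against 63.2% of all genes tested, and 2 passed. XTH27 rose from 45.2, 76.9 and 49.1 FPKM to 234, 202 and 174 FPKM (1.85, SE 0.29, adjusted p = 0.0034), and XTH30 from 0.22, 1.59 and 0.76 FPKM to 6.99, 6.34 and 4.4 FPKM (1.94, SE 0.34, adjusted p = 0.0067), the latter lost without replicate 1 at 0 µM (0.061). TCH4, a touch-inducible member, was at 3.81, 7.36 and 0.41 FPKM with Pi and 103, 46.4 and 13.5 FPKM without, and did not pass (3.43, adjusted p = 0.083). None of the 13 expansins or 5 cellulose synthases tested passed. LGT8, a glycosyltransferase of family 8, was at 2.01, 4.59 and 2.54 FPKM with Pi and at 61, 51.7 and 39 FPKM without (3.699, SE 0.43, adjusted p = 5.2e-04).

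Genes of wall sensing, picked after their values were seen, were among the risers too. THE1, a receptor kinase that monitors wall integrity, rose by 2.74 (SE 0.51, adjusted p = 0.012). The leucine-rich repeat extensin LRX3 rose by 2.89 (SE 0.62, adjusted p = 0.028), and the LRR family gene AT3G24480 by 1.13 (SE 0.24, adjusted p = 0.031). RALFL33, a secreted peptide of the RALF family, rose by 1.53 (SE 0.28, adjusted p = 0.011), 1 of 6 RALF-like genes tested. These calls were less firm: each was lost without replicate 1 at 0 µM and without at least 1 other library, with adjusted p up to 0.098 for THE1, 0.17 for LRX3, 0.20 for AT3G24480 and 0.070 for RALFL33. LRX3 at 200 µM spread from 6.79 to 80.4 FPKM, with replicate 1 the highest.

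**Figure D2:**
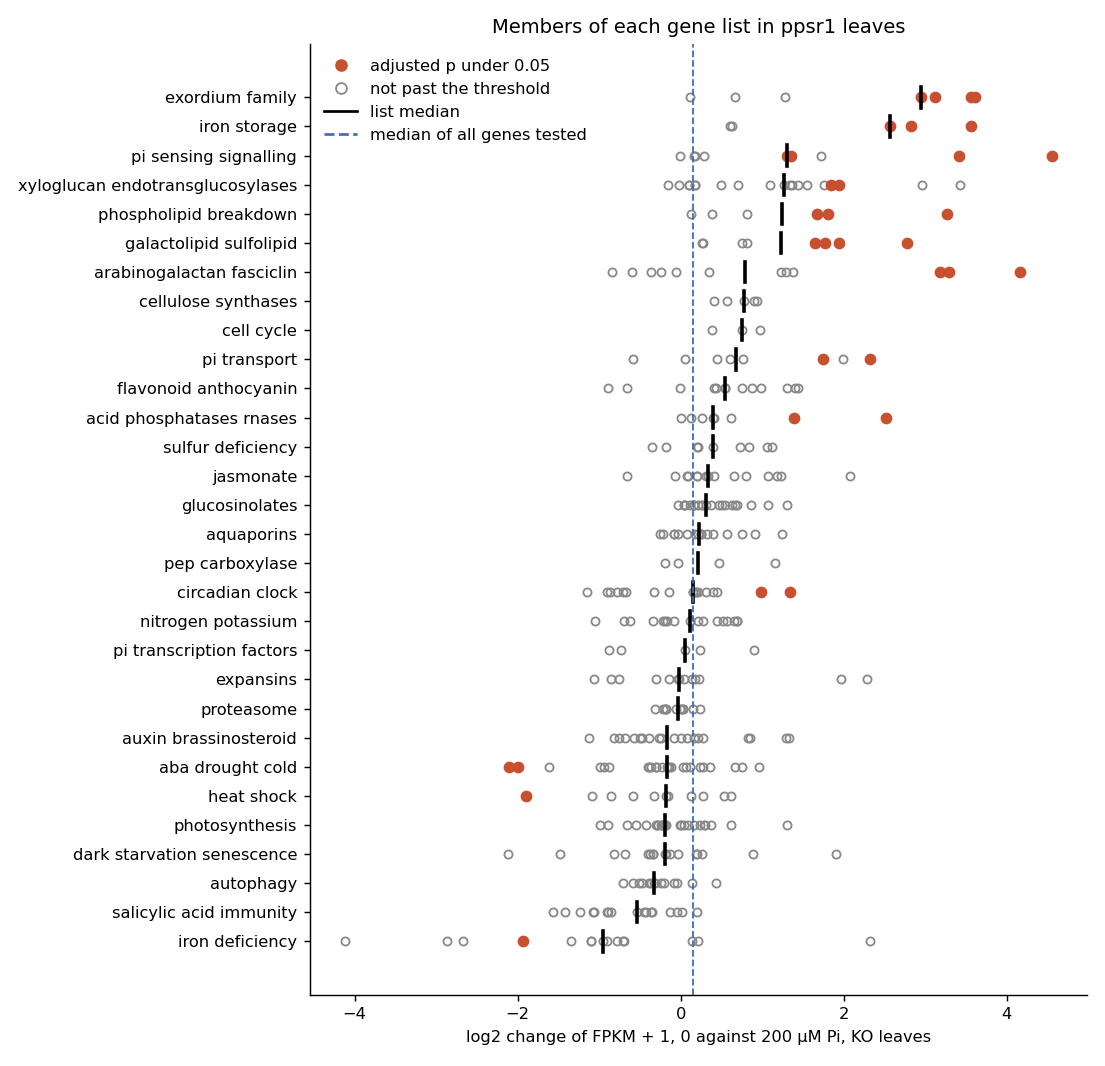
The log2 change of FPKM + 1 between 0 and 200 µM Pi in KO leaves, for each tested member of each list with at least 3 tested members. Filled points passed an adjusted p under 0.05, bars are list medians and the dashed line is the median of all genes tested, 0.15. The EXORDIUM and iron-storage lists have the highest medians, 2.95 and 2.56, and the iron-deficiency list the lowest, -0.96.

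Transcription factors of the MYB group that contains MYBR1, MYB70, MYB73 and MYB77, picked after their values were seen, rose in all 4 cases. MYB73 was at 36.1, 38.9 and 32.7 FPKM with Pi and 172, 150 and 159 FPKM without (2.13, SE 0.28, adjusted p = 0.0010), and its call was kept in all 6 leave-one-out fits. MYB77 rose by 2.31, MYB70 by 2.03 and MYBR1 by 1.98 (adjusted p = 0.010, 0.033 and 0.016), calls lost without replicate 1 or 2 at 0 µM or replicate 3 at 200 µM (adjusted p up to 0.074, 0.16 and 0.092). MYB70 was also lost without replicate 3 at 0 µM or replicate 2 at 200 µM, as was MYBR1. In WT leaves MYB73, MYB77, MYB70 and MYBR1 changed by 1.29, 2.53, 2.00 and 1.485, none of them called. In OE leaves they changed by 1.30, 1.965, 2.255 and 1.649, and all but MYBR1 were called. The KO and WT responses did not differ beyond the threshold for any of these MYB genes. Of the 5 genes annotated with domain DUF1005, 3 rose, namely AT3G19680 by 3.68, AT1G50040 by 3.05 and AT1G10020 by 2.29 (adjusted p = 0.0014, 0.0096 and 0.0016). AT1G50040 was lost without replicate 1 (0.070) or 2 (0.060) at 0 µM. In the circadian clock list, LUX, a subunit of the evening complex, was at 42.5, 36.9 and 43.2 FPKM with Pi and at 112, 86.8 and 118 FPKM without (1.34, SE 0.18, adjusted p = 0.0010). CHE, a TCP factor that represses CCA1, rose by 0.99 (SE 0.22, adjusted p = 0.038), lost in every leave-one-out fit except that without replicate 2 at 200 µM (up to 0.24). The other 16 clock genes did not pass, among them CCA1 (-0.67, adjusted p = 0.39) and TOC1 (0.15, adjusted p = 0.75).

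Genes of abscisic acid signalling were among the 23 that fell. Of 25 tested members of that list, 2 passed. The list median was -0.17, and 9 members had a value above 0, against 63.2% of all genes tested. HAI2, a phosphatase of type 2C that dampens the abscisic acid signal, was at 42.4, 16.7 and 41.7 FPKM with Pi and at 4.44, 6.79 and 8.73 FPKM without (fell by 2.105, SE 0.43, adjusted p = 0.022). HB-12, a homeodomain factor induced by drought, was at 36.7, 23.7 and 33.4 FPKM with Pi and at 4.51, 6.87 and 10.7 FPKM without (fell by 2.00, SE 0.39, adjusted p = 0.017). Like every called faller, both were lower in every 0 µM library. Both calls were lost without replicate 1 or 2 at 0 µM or replicate 1 or 3 at 200 µM (adjusted p up to 0.16 and 0.15). AFP1, a binding partner of the factor ABI5, fell by 1.28 (adjusted p = 0.049). The calcium-sensor kinases CIPK5 and CIPK7 fell by 1.43 and 1.13 (adjusted p = 0.028 and 0.039). They were 2 of 15 CBL-interacting protein kinases tested, whose median was 0.07. AFP1, CIPK5 and CIPK7 were picked after their values were seen. Each of these 3 was lost in 5 of the 6 leave-one-out fits, AFP1 (up to 0.23) and CIPK7 (up to 0.26) among them without replicate 1 at 0 µM; CIPK5 (up to 0.17) was kept without replicate 2 at 200 µM, as was AFP1, and CIPK7 without replicate 1 at 200 µM.

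The falls kept in all 6 leave-one-out fits were 3. HSFC1, a class C heat shock factor and the only called member among 11 heat genes, was at 24, 22.9 and 37.2 FPKM with Pi and at 6.85, 4.9 and 8.57 FPKM without (fell by 1.90, SE 0.31, adjusted p = 0.0036). ATCTH, a tandem CCCH zinc finger protein, was at 127, 174 and 116 FPKM with Pi and at 29, 47.2 and 49 FPKM without (fell by 1.73, SE 0.28, adjusted p = 0.0036). AT5G54585, a hypothetical protein, was at 114, 129 and 127 FPKM with Pi and at 26.3, 33.3 and 45.1 FPKM without (fell by 1.82, SE 0.25, adjusted p = 0.0011). The other 6 among the 12 largest falls were AT5G03230 (senescence regulator domain), AT1G79160, the small peptide gene RTFL16, AT1G54120, the cytokinin response factor CRF7 and AT5G57910, which fell by 1.94, 1.54, 1.54, 1.51, 1.48 and 1.46. All 6 were lost without replicate 1 at 0 µM, with the highest adjusted p at 0.29 for CRF7, and AT1G79160 was lost in every such fit. The call of AT5G57910 was otherwise lost only without replicate 3 at 0 µM (0.053). For AT5G03230 replicate 1 at 200 µM, at 506 FPKM, stood far above the other two at 121 and 136 FPKM.

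Other stress and nutrient programs held no called gene. None of 17 salicylic acid genes passed (15 of 17 below 0, against 36.8% of all genes tested). Their median of -0.53 was -0.95 without replicate 3 at 200 µM and -0.90 without replicate 2 at 0 µM, and their spread within groups was wide: the defence marker PR1 was at 2962, 737 and 138 FPKM with Pi and at 118, 785 and 167 FPKM without (-1.42, adjusted p = 0.60). None of 13 flavonoid genes passed (median 0.55), with chalcone synthase CHS at 30.6, 14.6 and 15.6 FPKM with Pi and at 27.3, 31.1 and 68.6 FPKM without (0.98, adjusted p = 0.44). The same held for 26 photosynthesis genes, 21 glucosinolate genes, 20 auxin and brassinosteroid genes, 17 nitrogen and potassium genes, 17 dark and starvation genes, 16 aquaporins, 15 jasmonate genes, 14 autophagy genes, 12 proteasome genes, 9 sulfur-deficiency genes and 3 cell-cycle genes. Their medians lay between -0.32 (autophagy) and 0.76 (cell cycle). RBCS1A, the Rubisco small subunit, ranged from 19734 to 53803 FPKM with Pi and from 25987 to 35049 FPKM without (0.00, adjusted p = 1.00).

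The response was set beside those of WT and OE leaves, which share no library with it. In OE leaves, 132 of 16489 genes were called (0.801%), 113 of them higher (0.685%). Of the 159 KO risers, 158 had a higher value at 0 µM in OE leaves, 67 were called there, and their median change was 1.16; 51.7% of all genes tested were higher. All 23 fallers had a lower value in OE and 10 were called. In WT leaves 1 gene was called (0.00606%), none of the KO risers or fallers was, and 92 of the 159 risers had a higher value at 0 µM, with a median change of 0.20; 48.5% of all genes tested were higher. AT4G16563, an aspartyl protease family gene with the third-largest rise in KO, changed by 4.35 in KO, 4.56 in OE and -0.85 in WT leaves. The ferritin FER1 changed by 3.57, 1.24 and 0.91, and only the KO value passed; the KO and WT responses of FER1 did not differ beyond the threshold (2.65, adjusted p = 0.23). The test of the difference between the KO and OE responses called no gene (limma). In that limma test, 340 of 16489 genes had an unadjusted p under 0.05, against 2405 for the KO leaf response itself. With voom on the recovered reads it also called none (316 of 16488 at an unadjusted p under 0.05).

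**Figure D3:**
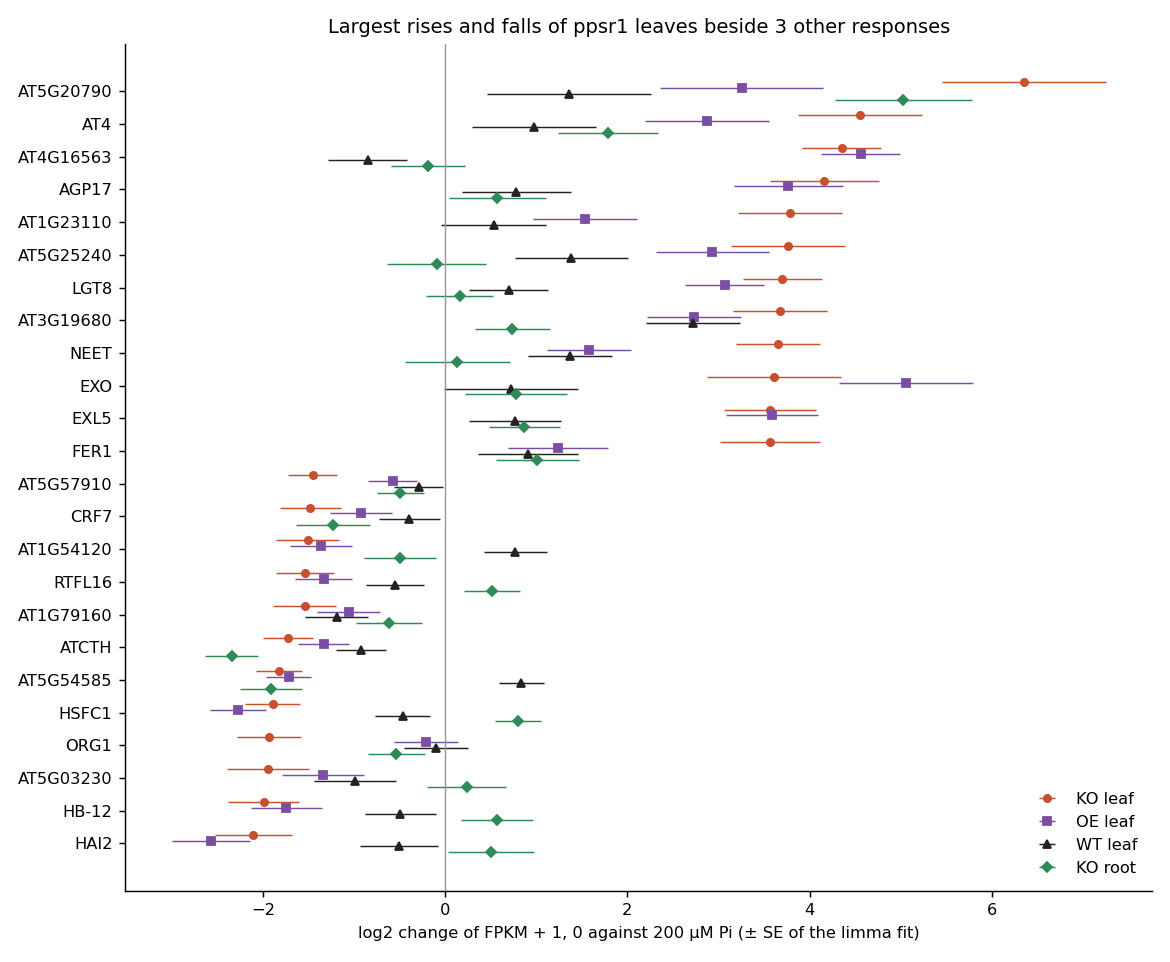
The 12 largest rises and 12 largest falls in KO leaves, by gene, with the log2 change of FPKM + 1 between 0 and 200 µM Pi in KO leaf (circles), OE leaf (squares), WT leaf (triangles) and KO root (diamonds); bars are standard errors of the limma fits, and a missing diamond was not tested in root. AT4G16563 is at 4.35 in KO leaf and 4.56 in OE leaf and below 0 in WT leaf and KO root.

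For 21 genes the KO and WT leaf responses differed (0.127% of those tested), 18 with a higher change in KO (0.109%) and 3 with a lower one (0.0182%). Of the 18, 16 are KO risers, as are 0.964% of all genes tested. Both tests use the same KO leaf libraries, so much of this overlap is built in. Fitted on the KO and WT leaf libraries alone, without the spread of the OE libraries, the test called none (1183 genes at an unadjusted p under 0.05, limma). The split was 18 higher and 9 lower with the coding length trend removed, and 9 and 5 with median-of-ratios scaling. For AT4G16563 the difference was 5.20 (SE 0.62, adjusted p = 0.0030). It was at 66.6, 95.9 and 74.3 FPKM in WT leaves with Pi, at 1.57, 4.8 and 3.62 FPKM in KO leaves with Pi, and at 2.53, 4.87 and 2.48 FPKM in OE leaves with Pi. Without Pi it was at 18.1, 57.8 and 74 FPKM in WT, at 137, 65.6 and 62.8 FPKM in KO and at 93.1, 87.2 and 114 FPKM in OE leaves. The WT libraries with Pi were thus all within the range of KO leaves without Pi, and WT lay apart from KO and OE at 200 µM. The OE libraries without Pi began higher, at 87.2 FPKM.

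FLA13 (difference 3.64, SE 0.51, adjusted p = 0.0079) had the same order, at 125, 184 and 155 FPKM in WT, 21.7, 17.8 and 14.2 FPKM in KO and 23.7, 21.8 and 15.4 FPKM in OE leaves with Pi. EXL3 (3.68, SE 0.68, adjusted p = 0.042) was at 128, 252 and 293 FPKM in WT and 17.3, 33.5 and 28.4 FPKM in KO leaves with Pi. AT5G54585 was the reverse: 24.6, 45.9 and 33.1 FPKM in WT and 114, 129 and 127 FPKM in KO leaves with Pi (-2.66, SE 0.35, adjusted p = 0.0044). The calls of AT4G16563, FLA13 and AT5G54585 were kept when any 1 KO or WT leaf library was left out; EXL3 was lost in 7 of those 12 fits (adjusted p up to 0.16, without KO replicate 1 at 0 µM), the others being KO replicate 2 at 0 µM, KO replicates 1 and 3 at 200 µM, and, among WT libraries, replicate 3 without Pi and replicates 2 and 3 with Pi. Over the 159 risers, the median log2 level at 200 µM was 1.11 higher in WT than in KO, and 0.22 higher in OE than in KO, against 0.10 and 0.09 over all genes tested; since the risers were chosen in part for low KO values at 200 µM, these medians are a description. At 0 µM the same medians were -0.40 for WT and -0.16 for OE.

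**Figure D4:**
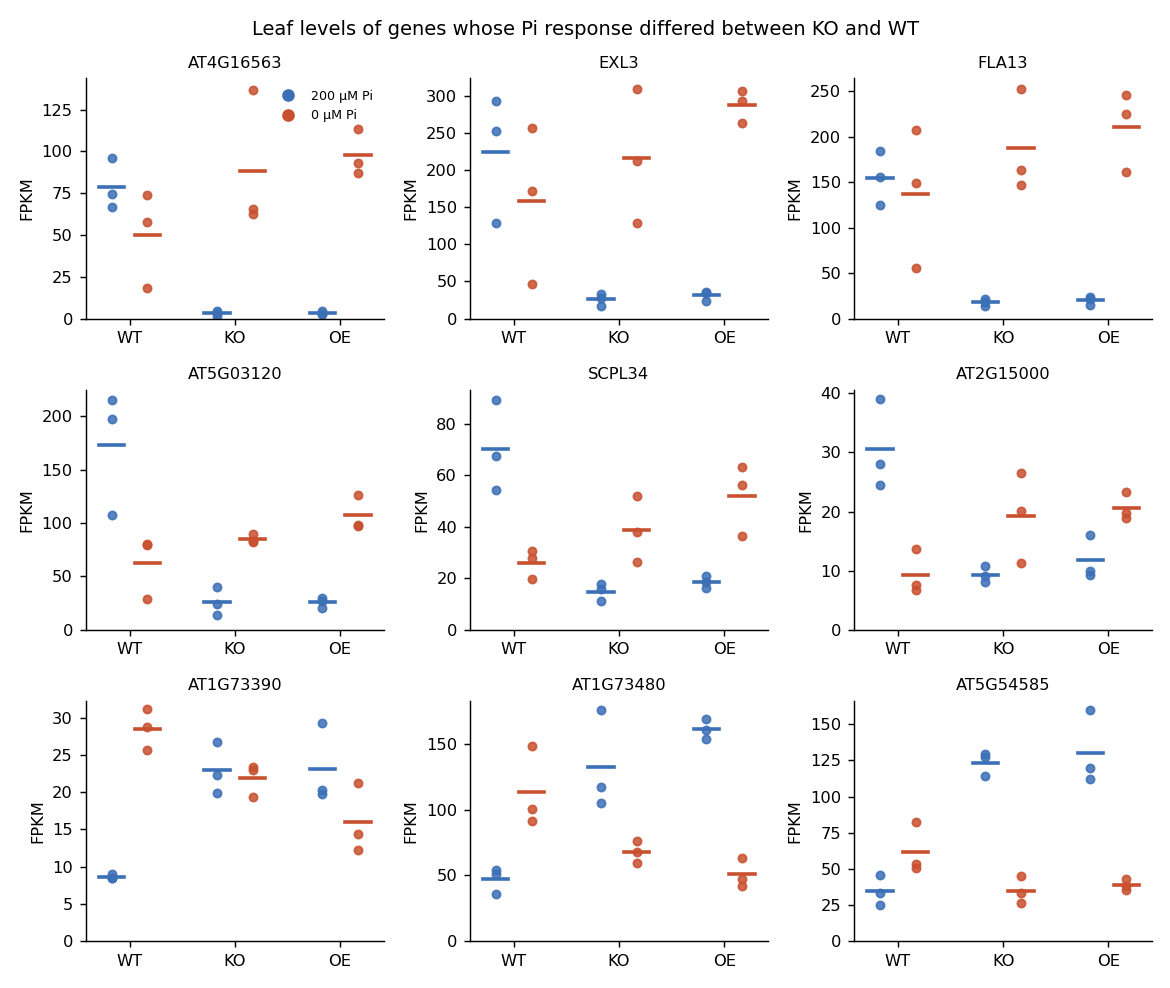
FPKM in each leaf library of WT, KO and OE at 200 µM (blue) and 0 µM Pi (red), for the 9 named genes whose Pi response differed between KO and WT; points are libraries and bars are means. In AT4G16563 and FLA13 the WT libraries with Pi lie with the 0 µM libraries of KO and OE.

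None of the 39 Pi-list genes differed between the KO and WT responses or between the KO and OE responses at an adjusted p under 0.05, although 31 and 35 of them had the larger value in KO (medians of the difference 0.66 and 0.59). Over all genes tested, 59.8% and 61.7% had the larger value in KO, with medians of 0.12 and 0.12. Their mean log2 level in the KO leaves at 0 µM, 4.17 to 4.69, lay above that of every other leaf library: 3.82 to 3.93 in WT and 3.83 to 3.93 in OE leaves without Pi. With Pi the levels were 3.97, 3.26 and 3.45 in WT replicates 1, 2 and 3 and 3.303 to 3.488 in OE, so that WT replicate 1 with Pi stood with the libraries without Pi. Without that library the KO and WT responses differed in 17 genes, 15 higher and 2 lower in KO.

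**Figure D5:**
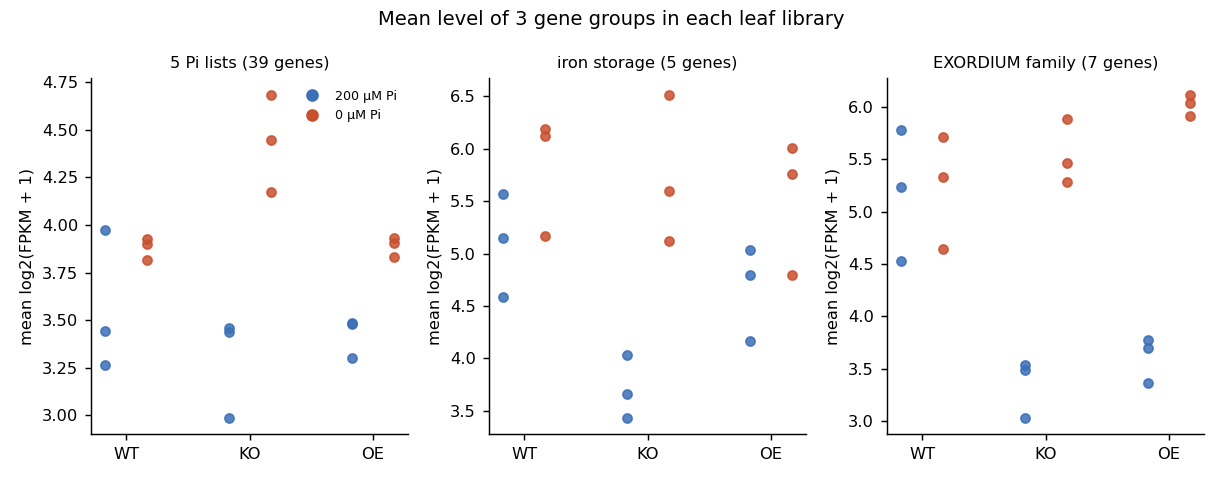
Mean log2(FPKM + 1) over the tested genes of 3 groups in each of the 18 leaf libraries, by genotype and Pi level. For the 5 Pi lists the KO libraries at 0 µM are the highest, at 4.17 to 4.69; for the EXORDIUM family the 3 WT libraries at 200 µM, at 4.53 to 5.78, lie above those of KO and OE, at 3.03 to 3.77.

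In KO roots, 195 of 15608 genes were called (1.25%), 57 higher (0.365%) and 138 lower (0.884%). Of the leaf risers, 151 were tested there, 10 were called higher and 2 lower; 3 of 22 leaf fallers were called lower. Leaf and root were compared in 1 fit, in which the leaf change exceeded the root change in 159 genes (1.02%) and fell below it in 22 (0.141%). AT4G16563 (difference 4.54), AT5G25240, annotated as stress induced (3.85), AT1G72416, a DnaJ-domain chaperone (3.79), FLA13 (3.66) and AGP17 (3.59) rose in leaf and had root changes of -0.19, -0.09, -0.35, -0.37 and 0.57, none of which passed. AT4G28085, a transmembrane protein, changed in opposite directions in both organs, by 1.85 in leaf and -2.41 in root (adjusted p = 0.038 and 0.044), although the leaf call was lost without replicate 1 or 2 at either Pi level (up to 0.24). The AGP17 difference was lost without leaf replicate 1 at 0 µM (0.060). In KO roots AGP17 was weakly expressed, at 0.27 to 1.65 FPKM with Pi and 0.55 to 4.64 FPKM without, so its root change is understated on this scale. HSFC1 was at 34.3, 50.5 and 35.7 FPKM in roots with Pi and at 70.4, 73.8 and 65.2 FPKM without. Its root change did not pass (0.80, adjusted p = 0.12), and it differed from the fall in leaf (difference -2.70, SE 0.36, adjusted p = 1.2e-04). SPX1 rose in both organs, by 3.41 in leaf and 3.15 in root, and G3Pp1 by 1.74 and 3.89, for which the difference passed (-2.15, adjusted p = 0.024). The PHO2 response also differed, at 1.72 in leaf and -1.29 in root (difference 3.01, adjusted p = 0.0036), although neither value passed in its own organ.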

How the data were processed

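Poly(A) RNA libraries, strand-specific by the dUTP method per the labels, were sequenced from leaves and roots of 3 genotypes at 2 Pi levels. Per the submitters' processing notes, Trimmomatic, HISAT2 2.2.1, DESeq2 and TAIR10 were used; their roles are not given. The authors deposited FPKM values per gene and library. The low values were whole multiples of 1 read within 0.1 read for 99.9% to 100.0% of those checked, which gave the depth of each library. Here, log2(FPKM + 1) of the 16489 genes averaging 1 FPKM or more across the 18 leaf libraries was fitted with limma 3.58.1 (R 4.3.3, trend, Benjamini-Hochberg over all genes), all leaf groups sharing 1 estimate of spread; leaf and root were compared in a joint fit of 36 libraries and 15608 genes. The fit was tested on simulated data. Genes were named as the 12 largest rises and 12 largest falls, up to 4 called genes per list, up to 6 per difference in each direction, and fixed markers; others are said to be picked after their values were seen. Members and lists were chosen with earlier results of these data known. The alternatives were the pseudocount, the filter, scaling, a coding length trend, library weights, the comparison's libraries alone, voom on recovered reads, a replicate block and leaving out each library. AtPPSR1 itself was not analysed here. The intervals between libraries rest on 3 replicates per group, which limits what small changes can pass.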

Additional observations from a re-analysis of the deposited data

Results flagged for a closer look

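The response of 9 named genes differed between KO and WT leaves by the limma test of the difference. The log2 differences (KO minus WT) were 5.20 for AT4G16563, 3.68 for EXL3, 3.64 for FLA13, 3.32 for the transmembrane protein gene AT5G03120, 2.69 for the carboxypeptidase gene SCPL34, 2.55 for AT2G15000, -2.66 for AT5G54585, -2.17 for the hydrolase gene AT1G73480 and -1.67 for AT1G73390. AT4G16563, FLA13, SCPL34 and AT5G54585 kept their calls when any 1 library was left out. AT5G03120 was lost without KO replicate 1 at 0 µM (0.059) or WT replicate 3 at 200 µM (0.054), AT1G73480 without KO replicate 1 at 0 µM (0.054), AT2G15000 in 6 of 12 fits (up to 0.091, without WT replicate 3 at 0 µM) and AT1G73390 in 10 of 12 (up to 0.0995, without KO replicate 1 at 0 µM). In KO leaves alone, AT2G15000 (0.91), AT1G73480 (-0.93) and AT1G73390 (-0.06) did not pass.

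Between KO leaf and KO root the response of 12 named genes differed. The log2 differences (leaf minus root) were 4.54 for AT4G16563, 4.26 for AT4G28085, 3.85 for AT5G25240, 3.79 for AT1G72416, 3.66 for FLA13, 3.59 for AGP17, -3.53 for AT1G08165, -2.98 for AT5G22390, -2.70 for HSFC1, -2.61 for HAI2, -2.56 for HB-12 and -2.48 for the glycosyltransferase gene AT4G37690. HAI2 was lost in 11 of 12 leave-one-out fits (up to 0.16, without leaf replicate 1 at 0 µM), AT1G08165 in 8 (up to 0.070, without leaf replicate 2 at 0 µM), and HB-12 without leaf replicate 1 at 0 µM (0.076) or root replicate 2 (0.056) or 3 (0.061) at 200 µM. AT1G08165 and AT5G22390 rose in root, by 3.96 and 1.78, and did not pass in leaf.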

How the results depend on the processing

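KO leaf calls numbered 159 higher and 23 lower. The higher calls were 70 and the lower 10 with the comparison's libraries alone, 858 and 560 with library weights (KO replicate 1 at 200 µM had a weight of 0.112), and the lower calls 49 without the coding length trend, 15 with no filter and 12 with voom. Leaving out 1 library gave 51 to 156 higher and 4 to 26 lower. The KO minus WT calls, 18 and 3, were 0 and 0 with those libraries alone, 31 and 5 with the filter at 5 FPKM, 120 and 14 with weights, 9 and 5 with median-of-ratios scaling, and 9 lower without the length trend; leaving out 1 library gave 6 to 41 and 1 to 5. Leaf minus root calls, 159 and 22, were 80 and 10 with those libraries alone, 357 and 119 with weights, and 77 and 5 with voom; the higher calls ranged from 72 to 199 and the lower from 7 to 42 leaving out 1 library. KO minus OE called none in any setting.

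The replicate numbers did not pair the libraries (correlations of deviations -0.152, 0.142 and -0.059); a replicate block gave 157 and 20 in KO leaf, 24 and 3 for KO minus WT, and 146 and 21 for leaf minus root. Values near 0 changed sign: RNS1 was -0.27 and AT1G08165 -0.033 with weights, and RBCS1A was -0.028 without the length trend and -0.156 with median-of-ratios scaling. Leaving out 1 library, the values ranged from -0.326 to 0.212 for PHR1, -0.222 to 0.464 for RNS1, -0.279 to 0.445 for RBCS1A, -0.158 to 0.047 for AT1G73390 and -0.033 to 1.141 for AT1G08165. Leaving out 1 library also changed the sign of some list medians: nitrogen and potassium (-0.235, without KO replicate 3 at 200 µM), Pi-related transcription factors (-0.152, without KO replicate 1 at 200 µM), expansins (up to 0.172, without KO replicate 3 at 0 µM) and proteasome (up to 0.034, without KO replicate 2 at 200 µM); the aquaporin median fell to 0.034 without KO replicate 1 at 200 µM. For named genes, direction and side of the threshold were kept in 829 comparisons with other settings and in 566 with 1 library left out, the call was lost in 135 and 206, and the sign changed in 4 and 12. The causes were not tested.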
